A study of Mus musculus with 8 samples.

Results

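Transcripts of the Wnt pathway were examined in 8 bulk RNA-seq libraries of mouse atria, 4 KO and 4 control. The genes were 53 listed members of the pathway (Wnt ligands, Frizzled and other receptors, secreted and membrane antagonists, R-spondins with their Lgr receptors, and the Axin, beta-catenin and Tcf/Lef genes), found by symbol among the 54532 genes of the deposited count table, where each member had 1 row. KO libraries came from Chd4flox/flox mice injected on postnatal day 2 with AAV9:Nppa-Cre, and control libraries from Chd4flox/flox mice injected on the same day with AAV9:Nppa-EGFP. All mice thus carried floxed alleles and received an AAV9 vector whose Nppa promoter is active in atrial muscle, so Cre was directed to muscle cells, while the RNA came from right and left atria with all cell types mixed. KO mice alone made Cre and control mice alone made EGFP, so any effect of either protein and that of losing Chd4 cannot be told apart. The sources used here did not give the age at collection or how many mice made up a library.

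Wnt proteins are secreted, lipid-modified ligands that bind Frizzled receptors. With the co-receptors Lrp5 and Lrp6 they stabilise beta-catenin, which then activates genes together with Tcf/Lef factors. Through Ror and Ryk receptors they also act without beta-catenin on cell polarity and movement. In the heart the pathway is known for its roles in cardiac progenitors, valve and outflow tract formation, and the response of fibroblasts and epicardium to injury.

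KO libraries held 34002292 to 38228982 counts each and control libraries 39804625 to 40588007. Levels are CPM, counts scaled to library size with edgeR's TMM factors, and differences were tested with edgeR's quasi-likelihood test over all 18033 genes that passed a filter on low counts. A gene was called at a Benjamini-Hochberg adjusted p under 0.05. Chd4, whose product remodels nucleosomes within NuRD, was at 185 ± 12.4 CPM in KO atria and 292 ± 13.3 CPM in control atria (SD, n = 4 each). Libraries KO 2 and control 2 stood apart from the others on the second principal component (20.3% of the variance).

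Of the 53 members, 47 passed the filter and 21 of these were called, 14 higher and 7 lower in KO. Called members were 44.7% of those tested, beside 27.9% of all 18033 genes, and the median log2 fold change was 0.10 for the members and 0.01 for all tested genes. The 4 called ligands and the 3 called Frizzled genes were all higher in KO, and both called Lgr receptors were lower. Of all tested genes, 14.8% were called higher and 13.1% lower. The largest decreases were in Sfrp5 and Dkk3, both listed with the secreted antagonists. The Dkk3 product is not known to block Lrp co-receptors as Dkk1 does. Called members with a change of 2-fold or more were 6 of the 47, beside 5.86% of all tested genes. Groups did not overlap for 21 of the 47 tested members, beside 29.2% of all tested genes. Of the 21 calls, 11 held in each of the 20 alternatives tried: Wnt4, Wnt5b, Fzd6, Ror1, Sfrp2, Sfrp4 and Ctnnb1 were higher and Ryk, Dkk3, Sfrp5 and Lgr4 lower. Controls 1 and 2 differ from controls 3 and 4 both in the library name prefix of the labels and in Y-linked Ddx3y (0.858 and 0.706 CPM in controls 1 and 2, 105 and 106 CPM in controls 3 and 4), so prefix and Y-linked expression cannot be told apart in these subsets. With controls 1 and 2 as the only controls, 11 members were called higher and 4 lower. With controls 3 and 4 as the only controls, these numbers were 8 and 5. Without KO 4 the members called lower were 4.

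**Figure D1:**
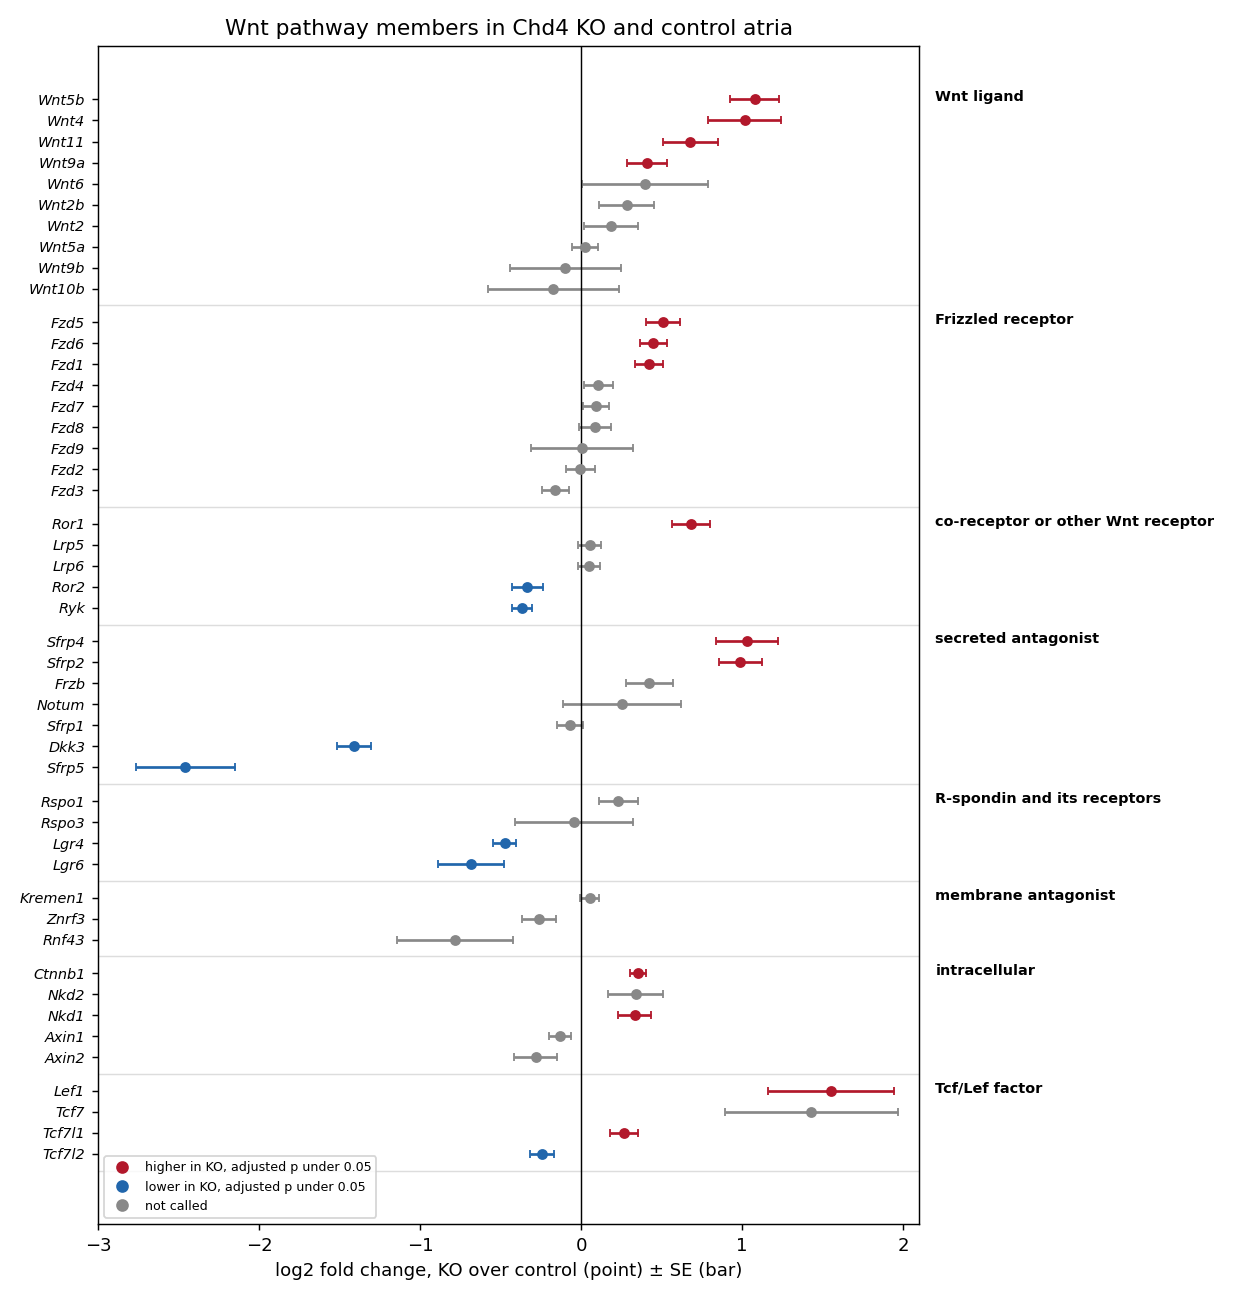
Log2 fold change of KO over control atria (x axis, point) with its standard error (bar) for the 47 tested members, grouped by role down the page and coloured by call. Called ligands and Frizzled genes lie right of 0 and called Lgr genes left of 0, while Sfrp5 (-2.46) and Dkk3 (-1.41) lie farthest left.

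Markers of the atrial cell types moved beside these genes. All 9 cardiomyocyte markers fell, with a summed level of 53417 to 64546 CPM in KO libraries and 83925 to 90530 CPM in control libraries. Of 8 fibroblast markers 5 rose and 0 fell, with sums of 7257 to 9533 CPM in KO and 6265 to 6991 CPM in control. Among 8 epicardial and mesothelial markers 5 rose and 0 fell, and their sums were 745 to 910.4 CPM in KO and 549 to 726 CPM in control. Endothelial markers summed to 1380.5 to 1545 CPM in KO and 1249 to 1352 CPM in control (4 rose and 1 fell of 8). Endocardial markers summed to 1611 to 1859.8 CPM in KO and 1243 to 1423 CPM in control (2 of 5 rose, 0 fell), and macrophage markers to 309 to 413 CPM in KO and 275 to 325 CPM in control (4 of 7 rose, 0 fell). Smooth muscle and pericyte markers summed to 339 to 470.0 CPM in KO and 459 to 725 CPM in control (2 rose and 2 fell of 7). Schwann cell and neuron markers summed to 22.0 to 28.0 CPM in KO and 21.6 to 28.2 CPM in control, and adipocyte markers to 0.163 to 53.7 CPM in KO and 0.378 to 2.42 CPM in control, with 0 called in either list. Erythroid and blood markers summed to 674 to 1657 CPM in KO and 901 to 1658 CPM in control (2 of 5 rose, 0 fell). Over all tested genes, 14.8% were called higher and 13.1% lower. Every marker of these lists had counts in at least 1 library. In whole atria, fewer cells of a type and less RNA of its markers per cell cannot be told apart. The part of these shifts in the Wnt results was not tested.

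Among the ligands, 4 of 10 rose in KO and the other six were not called, beside 27.9% of all tested genes called in either direction and 14.8% called higher. Wnt5b, a ligand of the branch without beta-catenin, was at 5.69, 6.25, 6.21 and 5.99 CPM in KO 1 to 4 and at 3.12, 2.09, 3.06 and 3.16 CPM in control 1 to 4. Every KO library lay above every control library, and control 2 was the lowest. Wnt5b rose 2.11-fold (log2 fold change 1.08, SE 0.15, edgeR adjusted p = 0.000298). Wnt4, known for its part in kidney and gonad formation, was at 3.83, 3.57, 3.51 and 5.66 CPM in KO and at 2.34, 1.34, 2.50 and 2.01 CPM in control. Its groups did not overlap, with KO 4 above the other KO libraries, and it rose 2.02-fold (log2 fold change 1.02, SE 0.23, edgeR adjusted p = 0.00575).

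Wnt11, a ligand of outflow tract formation that acts mainly without beta-catenin, was at 12.0, 8.76, 8.36 and 9.92 CPM in KO and at 4.97, 4.92, 7.89 and 6.62 CPM in control. KO 3 and control 3 came within 0.5 CPM of each other without overlap. It rose 1.60-fold (edgeR adjusted p = 0.0118), and its log2 fold change was 0.68 against all controls and 0.40 against controls 3 and 4 alone (adjusted p = 0.121). Wnt9a, a ligand of joint and valve formation, was at 11.1, 10.5, 11.6 and 14.7 CPM in KO and at 8.14, 8.65, 10.4 and 8.94 CPM in control. The groups nearly met at KO 2 and control 3. Wnt9a rose 1.33-fold (edgeR adjusted p = 0.0289), a call lost without KO 3 (0.0524), KO 4 (0.0894), control 1 (0.0859), control 2 (0.0557) or control 4 (0.0708). Against controls 3 and 4 alone its log2 fold change was 0.28 (adjusted p = 0.223).

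Wnt5a, paralog of Wnt5b and the most abundant ligand per length, was at 59.6, 61.2, 57.6 and 53.0 CPM in KO and at 58.3, 48.1, 62.5 and 59.0 CPM in control. The groups overlapped across their whole range (log2 fold change 0.02, SE 0.08, edgeR adjusted p = 0.869). Wnt2b was at 7.46, 8.81, 8.25 and 12.4 CPM in KO and at 8.50, 8.72, 6.13 and 7.05 CPM in control, and was not called (edgeR adjusted p = 0.240). Wnt2 averaged 4.60 ± 0.609 CPM in KO and 4.05 ± 0.733 CPM in control (SD, n = 4 each). Wnt6, Wnt9b and Wnt10b were each under 1 CPM in every library. Divided by the length of merged exons, the 10 ligands together averaged 21.4 ± 0.941 CPM per kb in KO and 17.1 ± 1.73 CPM per kb in control. Wnt5a made up 34.7% ± 3.35 of that sum in KO and 42.5% ± 1.00 in control, and Wnt5b 10.7% ± 0.688 in KO and 6.26% ± 0.725 in control.

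RefSeq lists 3 starts for Wnt5b on GRCm38.p6, and the windows of 250 bases before to 50 after each were searched on both strands for the TCF/LEF letters CTTTGAA and CTTTGAT, the T-box letters AGGTGT and the GATA letters AGATAA. Wnt5b was chosen because it is among the members with the largest rise. The window shown was chosen because it holds matches, in capitals, and the windows of the other starts hold none of these letters. CTTTGAT begins 71 bases before the start, and ACACCT, which is AGGTGT read on the opposite strand, begins 44 bases before it.
Wnt5b, chr6:119449337-119449636, minus strand: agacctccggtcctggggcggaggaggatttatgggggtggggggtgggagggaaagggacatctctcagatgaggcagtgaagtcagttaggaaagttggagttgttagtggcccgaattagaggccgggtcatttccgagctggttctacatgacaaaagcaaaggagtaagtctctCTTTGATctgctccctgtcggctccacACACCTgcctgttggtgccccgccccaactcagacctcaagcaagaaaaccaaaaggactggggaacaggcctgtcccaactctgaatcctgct
Of 32851 such windows of mouse genes, 8.65% hold the TCF/LEF letters, 13.7% the T-box letters and 11.2% the GATA letters. Among 47 windows of the 37 members with an entry, 3 hold the TCF/LEF letters, 8 the T-box letters and 4 the GATA letters.

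**Figure D2:**
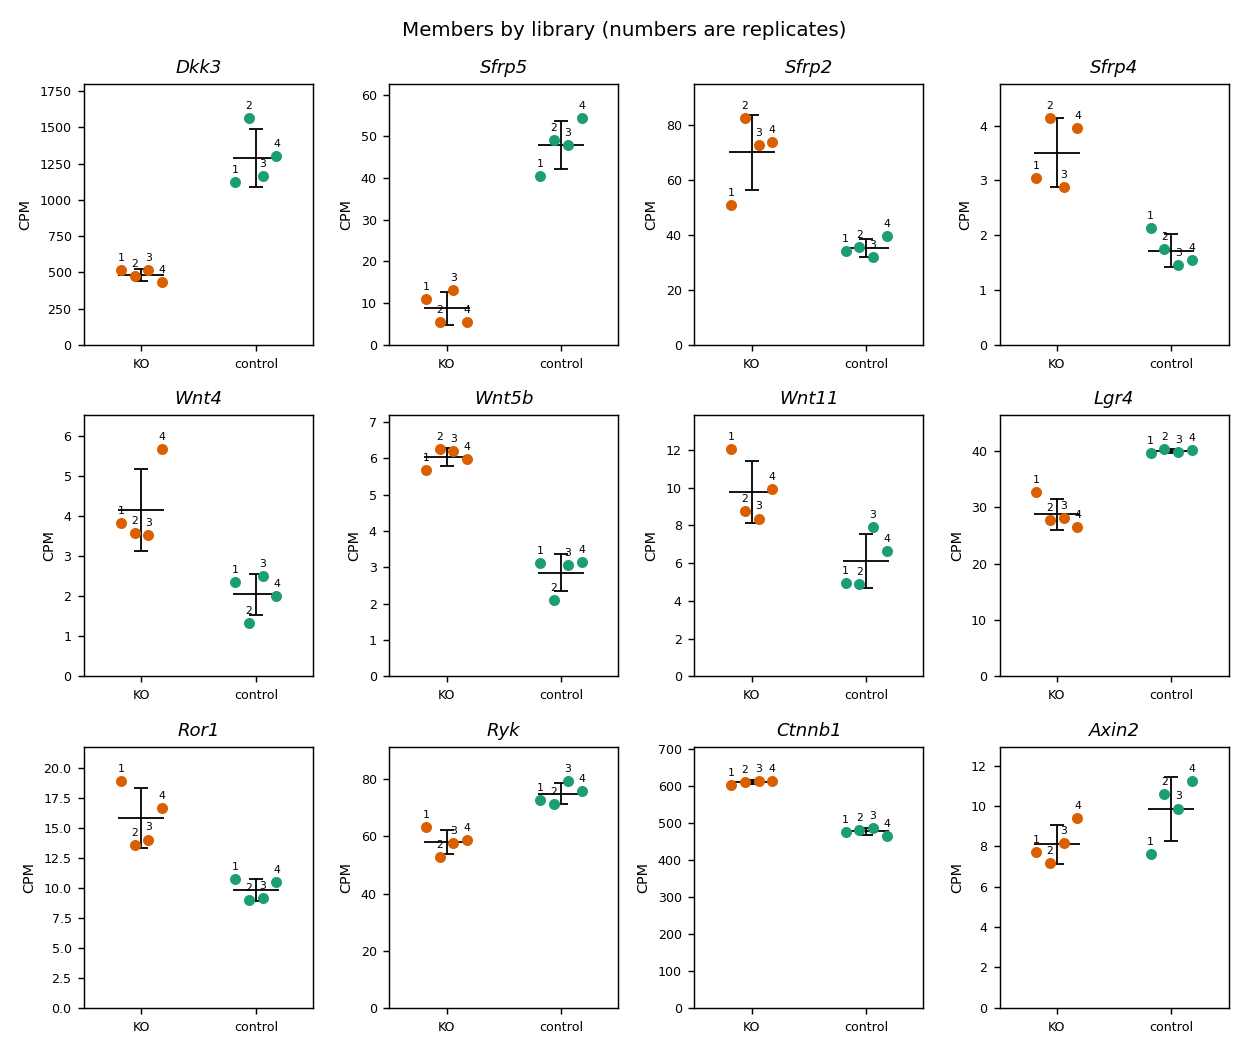
CPM (y axis, linear from 0) of 12 members in each KO library (left, orange) and control library (right, green), numbered by replicate, with the mean (wide line) and SD (bar). The 12 genes were selected for display. KO and control points do not overlap for 11 of them, and they overlap for Axin2. Groups did not overlap for 21 of the 47 tested members and for 29.2% of all tested genes.

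Among Frizzled receptors, 3 of the 9 tested rose and 0 fell, a called share of 33.3%, near the 27.9% of all tested genes. Fzd6, which is known for hair and cell polarity, was at 50.3, 62.8, 57.6 and 57.5 CPM in KO and at 44.4, 38.1, 46.8 and 38.0 CPM in control. Its lowest KO library lay above its highest control library, and it rose 1.36-fold (log2 fold change 0.45, SE 0.09, edgeR adjusted p = 0.00238). Fzd1 was at 32.8, 38.1, 35.4 and 43.1 CPM in KO and at 27.1, 30.4, 26.4 and 27.5 CPM in control, again without overlap. It rose 1.34-fold (edgeR adjusted p = 0.00333), with an adjusted p of 0.0531 against controls 1 and 2 alone. Fzd5, a receptor known from eye and gut, was at 19.1, 15.6, 14.7 and 17.7 CPM in KO and at 10.4, 11.4, 12.0 and 13.2 CPM in control. Each KO library exceeded each control library. Fzd5 rose 1.42-fold (edgeR adjusted p = 0.00397), with an adjusted p of 0.0560 against controls 3 and 4 alone.

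Fzd4, which also binds the non-Wnt ligand Norrin, had the highest level per length of the Frizzled genes in both groups. It was at 102, 114, 115 and 119.8 CPM in KO and at 104, 122, 88.2 and 104 CPM in control. These ranges overlapped, with control 2 highest and control 3 lowest (log2 fold change 0.11, SE 0.09, edgeR adjusted p = 0.417). Fzd7 was at 45.3, 38.7, 37.3 and 40.9 CPM in KO and at 33.1, 40.7, 38.7 and 39.4 CPM in control (edgeR adjusted p = 0.415). Fzd2, Fzd3, Fzd8 and Fzd9 were not called, with log2 fold changes of -0.16 to 0.09. Fzd10 did not pass the filter, with 2 to 11 counts in KO libraries and 1 to 4 counts in control libraries. The 10 Frizzled genes together averaged 58.9 ± 2.73 CPM per kb in KO and 51.0 ± 1.29 CPM per kb in control, sums whose libraries did not overlap.

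The Ror and Ryk receptors differed in direction. Ror1, a receptor tyrosine kinase family member that binds Wnt5a, was at 19.0, 13.6, 14.1 and 16.7 CPM in KO and at 10.8, 8.98, 9.14 and 10.5 CPM in control. No control library reached the lowest KO library, and Ror1 rose 1.60-fold (log2 fold change 0.68, SE 0.12, edgeR adjusted p = 0.00126). Ror2, its paralog and also a receptor of Wnt5a, was at 8.20, 7.15, 8.25 and 7.67 CPM in KO and at 10.1, 9.23, 10.5 and 9.63 CPM in control. The groups were apart by about 1 CPM. Ror2 fell by 0.33 on the log2 scale (edgeR adjusted p = 0.0213), a call lost without KO 2 (0.0691), KO 4 (0.0526), control 1 (0.0581) or control 3 (0.0507). The Ror2 call was also lost with total counts only (0.0628), no filter on low counts (0.0554), without KO 2 and control 2 together (0.0668), and against controls 1 and 2 (0.101) or controls 3 and 4 (0.0540) alone.

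Ryk, an atypical receptor with a Wnt-binding domain, was at 63.2, 52.7, 57.6 and 58.7 CPM in KO and at 72.7, 71.3, 79.5 and 76.0 CPM in control. All KO libraries lay below all control libraries, and Ryk fell 1.29-fold (log2 fold change -0.37, SE 0.06, edgeR adjusted p = 0.00134). The beta-catenin branch co-receptors were not called. Lrp6 was at 140.1, 170.4, 154 and 169.8 CPM in KO and at 146, 159, 153 and 155 CPM in control (log2 fold change 0.05, SE 0.07, edgeR adjusted p = 0.648). Lrp5 was at 111, 98.1, 99.4 and 109 CPM in KO and at 94.2, 110.2, 94.1 and 104 CPM in control (edgeR adjusted p = 0.617). Both had overlapping groups.

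Secreted antagonists held the largest decreases and some of the largest increases. Of 11, 7 passed the filter, of which 2 rose and 2 fell, a called share of 57.1% beside 27.9% of all tested genes. Dkk3 (chromosome 7, 112116017 to 112159057 on GRCm38), a divergent Dickkopf gene whose product is not known to block Lrp co-receptors as Dkk1 does, was the most abundant member per length in both groups. It was at 517, 473, 516 and 431 CPM in KO and at 1121, 1566, 1161 and 1304 CPM in control. The highest KO library was under the lowest control library by more than a factor of 2, and Dkk3 fell 2.66-fold (log2 fold change -1.41, SE 0.11, edgeR adjusted p = 3.29e-06). Per length, Dkk3 was at 144 ± 12.2 CPM per kb in KO and 383 ± 59.9 CPM per kb in control (SD, n = 4 each). The other Dickkopf members, Dkk1, Dkk2 and Dkkl1, did not pass the filter and had at most 14 counts in any library.

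Sfrp5 (chromosome 19, 42197971 to 42202252 on GRCm38), which encodes a secreted Frizzled-related protein that binds Wnts, was at 10.9, 5.56, 13.2 and 5.36 CPM in KO and at 40.4, 49.0, 48.0 and 54.5 CPM in control. All KO libraries were at 13.2 CPM or less, and KO 1 and KO 3 held about double the level of KO 2 and KO 4. Sfrp5 fell 5.50-fold (log2 fold change -2.46, SE 0.31, edgeR adjusted p = 0.000938), and over the 20 alternatives the log2 fold change ranged from -2.73 to -2.28. It ranked 22 among the 53 members by level per length in KO and 4 in control. The window around its start is shown because Sfrp5 has the largest decrease. Both GATA matches (AGATAA, in capitals) lie on the gene's strand, beginning 236 and 180 bases before the start, and neither the TCF/LEF nor the T-box letters are in this window.
Sfrp5, chr19:42202203-42202502, minus strand: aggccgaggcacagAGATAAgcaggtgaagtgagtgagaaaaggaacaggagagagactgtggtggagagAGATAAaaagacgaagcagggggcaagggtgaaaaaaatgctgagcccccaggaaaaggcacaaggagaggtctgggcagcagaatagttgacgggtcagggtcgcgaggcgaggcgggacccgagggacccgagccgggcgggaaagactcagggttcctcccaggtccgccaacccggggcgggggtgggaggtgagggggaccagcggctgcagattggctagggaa

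Sfrp2, of the same family and known from fibroblasts, was at 50.9, 82.6, 72.6 and 73.7 CPM in KO and at 34.1, 35.6, 31.9 and 39.5 CPM in control. KO 1 was lowest among the KO libraries and still above every control library. Sfrp2 rose 1.98-fold (log2 fold change 0.99, SE 0.13, edgeR adjusted p = 0.000466). Sfrp4 was at 3.04, 4.14, 2.89 and 3.96 CPM in KO and at 2.13, 1.74, 1.45 and 1.55 CPM in control, without overlap, and rose 2.04-fold (log2 fold change 1.03, SE 0.19, edgeR adjusted p = 0.00198). Sfrp1 was at 74.2, 89.4, 79.4 and 75.5 CPM in KO and at 78.2, 82.4, 78.7 and 95.2 CPM in control. Its groups overlapped (log2 fold change -0.07, SE 0.08, edgeR adjusted p = 0.549). Frzb was at 26.6, 30.3, 19.7 and 34.2 CPM in KO and at 20.8, 18.4, 22.3 and 21.1 CPM in control (edgeR adjusted p = 0.0527), with KO 3 inside the control range. Frzb was called without KO 3 (adjusted p = 0.00267, log2 fold change 0.56), by DESeq2 (0.0227), with a filter of 1 CPM (0.0462) and with total counts only (0.0227), and in none of the other 16 alternatives.

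The summed level of the 5 secreted Frizzled-related genes overlapped between the groups while its makeup differed. It averaged 64.7 ± 6.97 CPM per kb in KO and 67.5 ± 5.85 CPM per kb in control, with overlapping libraries. Sfrp2 took 49.9% ± 4.80 of the sum in KO and 24.3% ± 1.20 in control. Sfrp5 took 7.32% ± 3.64 in KO and 37.3% ± 2.01 in control. Sfrp1 was at 28.2% ± 1.86 in KO and 28.3% ± 0.638 in control (SD, n = 4 each). In the same libraries 5 of 8 fibroblast markers were called higher and all 9 cardiomyocyte markers lower, as given above. The part of such shifts in these shares was not tested. Notum, an enzyme that removes the lipid of Wnt proteins, averaged 0.538 ± 0.195 CPM in KO and 0.453 ± 0.157 CPM in control. Its exons share 708 bases with the antisense gene Notumos and 210 bases with the antisense gene Myadml2os. These had 54 and 67 counts over all libraries, beside 152 for Notum. Without a stated strand setting for the counting, reads of these genes cannot be told apart.

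**Figure D3:**
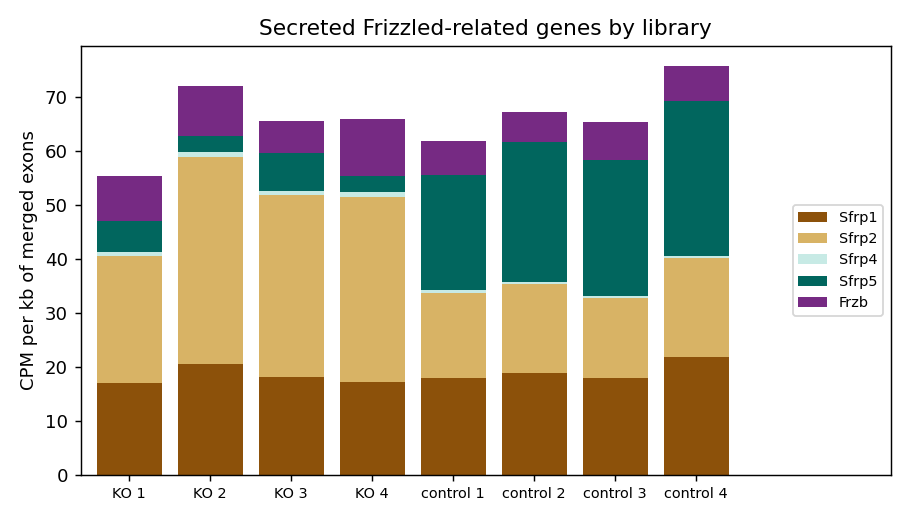
Level per length (y axis, CPM per kb of merged exons, from 0) of the 5 secreted Frizzled-related genes in each library, stacked, with KO libraries left of control libraries. Stack heights overlap between the groups, while the Sfrp2 share is 49.9% in KO and 24.3% in control and the Sfrp5 share 7.32% in KO and 37.3% in control.

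R-spondins raise the level of Frizzled receptors at the cell surface by binding Lgr receptors and the ubiquitin ligases Rnf43 and Znrf3, which otherwise remove them. Of the 4 tested R-spondin and Lgr genes, 0 rose and 2 fell, a called share of 50% beside 27.9% of all tested genes. The 2 that fell were the abundant Lgr genes, and the Lgr6 call held in 10 of the 20 alternatives. Lgr4 was at 32.8, 27.7, 28.1 and 26.5 CPM in KO and at 39.6, 40.3, 39.8 and 40.2 CPM in control. The control libraries lay within 1 CPM of each other and above every KO library, and Lgr4 fell 1.39-fold (log2 fold change -0.48, SE 0.07, edgeR adjusted p = 0.000403). Lgr6 was at 147, 71.0, 130.2 and 125 CPM in KO and at 174, 200.5, 174 and 209 CPM in control. KO 2 was lowest, and no KO library reached the controls. Lgr6 fell 1.60-fold (log2 fold change -0.68, SE 0.20, edgeR adjusted p = 0.0405), a call lost without KO 3 (0.0673), KO 4 (0.0799), control 1 (0.0662), control 2 (0.102), control 3 (0.0686) or control 4 (0.0955), though not without KO 2 (0.00221, log2 fold change -0.50). It was also lost with the replicate number as a block (0.0810), with every gene kept whatever its counts (0.122), and against controls 1 and 2 (0.162) or controls 3 and 4 (0.170) alone. Lgr5 was at 1 to 16 counts per KO library and 4 to 9 per control library and did not pass the filter.

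Rspo1 was at 22.7, 16.2, 15.3 and 18.6 CPM in KO and at 15.8, 17.3, 14.7 and 14.1 CPM in control, with overlapping groups (edgeR adjusted p = 0.182). Rspo3 averaged 0.350 ± 0.135 CPM in KO and 0.358 ± 0.0845 CPM in control. Znrf3 was at 10.8, 11.3, 9.10 and 9.21 CPM in KO and at 13.1, 12.7, 10.6 and 12.0 CPM in control. Only control 3 fell inside the KO range, and Znrf3 was not called (log2 fold change -0.26, SE 0.11, edgeR adjusted p = 0.0894), but was called without control 3 (adjusted p = 0.0462) and by limma-voom (0.0414). Rnf43 was at 0.796, 0.670, 1.12 and 0.569 CPM in KO and at 0.754, 1.16, 2.399 and 1.12 CPM in control (edgeR adjusted p = 0.129), and was called against controls 3 and 4 alone (0.0423). Kremen1, a receptor for Dickkopf proteins, was at 120.0, 117, 123 and 131 CPM in KO and at 112, 115, 120.1 and 126 CPM in control (edgeR adjusted p = 0.527).

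Ctnnb1 (chromosome 9, 120929216 to 120960507 on GRCm38) encodes beta-catenin, which serves both in Wnt signalling and in cell adhesion at the intercalated disc. It was at 602, 610.0, 614 and 613 CPM in KO and at 477, 481, 486 and 466 CPM in control. Both groups were tight and lay far apart relative to their spread. Ctnnb1 rose 1.28-fold (log2 fold change 0.35, SE 0.05, edgeR adjusted p = 0.000336). Its exons share 759 bases with Ulk4 on the opposite strand, a gene with 462 counts over all libraries beside 164880 for Ctnnb1. Axin2, a target and feedback inhibitor of beta-catenin signalling, was at 7.70, 7.17, 8.14 and 9.401 CPM in KO and at 7.65, 10.6, 9.88 and 11.3 CPM in control. Control 1 lay within the KO range, and Axin2 was not called (log2 fold change -0.28, SE 0.13, edgeR adjusted p = 0.142), but was called without control 1 (adjusted p = 0.0415).

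Axin1, a scaffold of the complex that degrades beta-catenin, was at 30.5, 29.5, 30.1 and 31.9 CPM in KO and at 30.7, 33.7, 32.2 and 37.1 CPM in control (edgeR adjusted p = 0.179). Nkd1, which binds Dishevelled and dampens Wnt signals, was at 14.8, 12.6, 12.8 and 15.0 CPM in KO and at 12.0, 10.8, 11.5 and 9.55 CPM in control. It rose 1.26-fold (edgeR adjusted p = 0.0290) with groups that did not overlap, a call lost without KO 1 (0.0620), KO 4 (0.0886), control 2 (0.0520) or control 4 (0.0901). It was also lost without KO 2 and control 2 together (0.0530) and against controls 1 and 2 (0.179) or controls 3 and 4 (0.0683) alone. Its paralog Nkd2 averaged 3.26 ± 0.471 CPM in KO and 2.58 ± 0.372 CPM in control (edgeR adjusted p = 0.165, n = 4 each).

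Of the 4 Tcf/Lef factors, which bring beta-catenin to its target genes, Lef1 and Tcf7l1 rose and Tcf7l2 fell. The called share was 75%, beside 27.9% of all tested genes. The Tcf7l1 call held in 10 of the 20 alternatives and the Tcf7l2 call in 9. Lef1 was at 1.92, 4.27, 2.12 and 1.92 CPM in KO and at 0.520, 0.958, 1.51 and 0.509 CPM in control. KO 2 was at least 2 CPM above the other KO libraries, and control 3 came nearest to the KO group without overlap. Lef1 rose 2.93-fold (log2 fold change 1.55, SE 0.39, edgeR adjusted p = 0.0133), with an adjusted p of 0.102 against controls 3 and 4 alone. Tcf7 was at 29.3, 46.9, 31.2 and 24.1 CPM in KO and at 3.61, 13.6, 22.8 and 8.71 CPM in control. Its groups did not overlap, but the controls spread widely, and it was not called by edgeR (log2 fold change 1.43, SE 0.54, adjusted p = 0.0984). The call was made without control 3 (0.0361), by DESeq2 (0.0336) and by limma-voom (0.00310), and over all alternatives the adjusted p ranged from 0.00310 to 0.296.

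Tcf7 and Lef1 are also known from T cells and thymocytes, and markers of those cells, chosen after the Tcf7 and Lef1 values were seen, moved with them across libraries. Rag1, a recombinase of immature lymphocytes, was at 38.6, 66.2, 35.3 and 26.8 CPM in KO and at 3.33, 14.5, 30.6 and 9.75 CPM in control. KO 2 was highest and KO 4 lowest in KO, and control 3 highest and control 1 lowest in control, for both Tcf7 and Rag1. Cd3e, of the T cell receptor complex, was at 3.54, 5.81, 3.65 and 2.63 CPM in KO and at 0.624, 1.56, 2.42 and 0.637 CPM in control. Of 10 such markers, of which Cd3e also stands in the blood list, 9 passed the filter, of which 4 rose and 0 fell. The called share was 44.4%, beside 27.9% of all tested genes. The 10 markers summed to 79.7 to 190.1 CPM in KO libraries and 14.1 to 88.8 CPM in control libraries. No marker of the 10 was at 0 in all libraries, and the part of lymphoid RNA in the Tcf7 and Lef1 values was not tested.

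**Figure D4:**
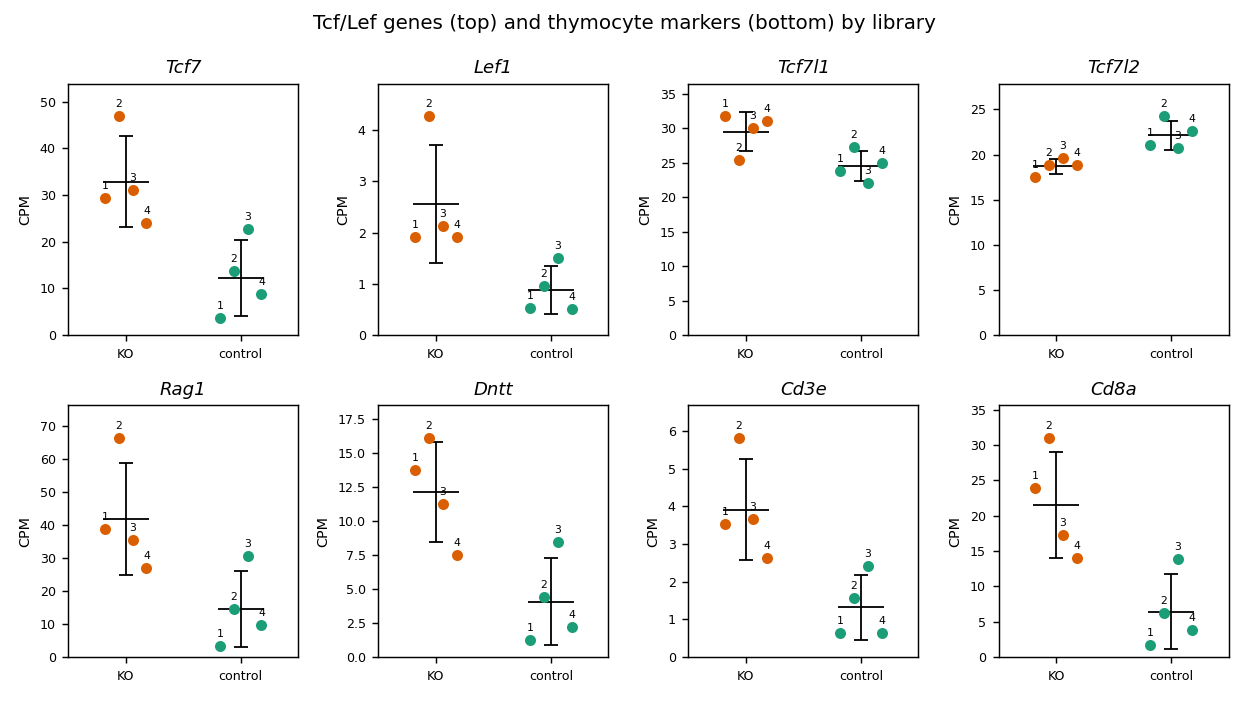
CPM (y axis, linear from 0) of the 4 Tcf/Lef genes (top) and 4 thymocyte or T cell markers (bottom) in each KO library (left, orange) and control library (right, green), numbered by replicate, with mean and SD. KO 2 and control 3 are the highest libraries of their groups for Tcf7, Lef1, Rag1, Dntt, Cd3e and Cd8a.

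Tcf7l1, known mainly as a repressor, was at 31.7, 25.4, 29.9 and 31.0 CPM in KO and at 23.7, 27.3, 22.1 and 25.0 CPM in control. KO 2 lay inside the control range. Tcf7l1 rose 1.20-fold (edgeR adjusted p = 0.0408), a call lost without KO 1 (0.0932), KO 3 (0.0886), KO 4 (0.103), control 1 (0.102), control 3 (0.1005) or control 4 (0.0789), and with the replicate number as a block (0.0758). It was also lost with a Y-linked covariate (0.0755) and against controls 1 and 2 (0.258) or controls 3 and 4 (0.0713) alone. Tcf7l2, the factor known from gut and metabolic tissue, was at 17.6, 18.8, 19.6 and 18.8 CPM in KO and at 21.0, 24.2, 20.8 and 22.6 CPM in control. Its groups lay close without overlap. Tcf7l2 fell by 0.24 on the log2 scale (edgeR adjusted p = 0.0294), a call lost without KO 1 (0.0557), KO 2 (0.0641), KO 4 (0.0582), control 2 (0.0757) or control 4 (0.0703). The Tcf7l2 call held in 9 of the 20 alternatives, and was also lost with total counts only (0.159, log2 fold change -0.16), no filter on low counts (0.0550), Y-linked expression as a covariate (0.0519), without KO 2 and control 2 together (0.134), and against controls 1 and 2 (0.0509) or controls 3 and 4 (0.0962) alone.

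Lef1, chosen because it has the largest rise of the called members, has 4 starts in RefSeq on GRCm38.p6. The window with most T-box letters is shown. Both capitalised runs are ACACCT, which is AGGTGT on the opposite strand, beginning 231 and 7 bases before the start. Another start has AGGTGT and AGATAA matches after it, and the remaining pair of windows, which overlap each other, hold none of the letters searched.
Lef1, chr3:131112541-131112840, plus strand: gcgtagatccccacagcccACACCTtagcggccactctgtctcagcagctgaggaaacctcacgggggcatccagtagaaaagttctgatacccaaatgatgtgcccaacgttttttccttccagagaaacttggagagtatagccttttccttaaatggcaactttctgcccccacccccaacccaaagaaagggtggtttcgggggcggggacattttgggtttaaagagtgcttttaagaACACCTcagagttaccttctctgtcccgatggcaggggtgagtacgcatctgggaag

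Other genes of the pathway, from 7 lists, were set beside the members. The lists were chosen with earlier results of these data known. Of 19 tested genes listed as transcriptional targets of Wnt signalling, 9 rose and 3 fell, a called share of 63.2% beside 27.9% of all tested genes (median log2 fold change 0.39). Wisp1 (Ccn4), a matricellular gene first found as Wnt-induced, fell 2.75-fold, to 12.2 ± 1.82 CPM in KO against 33.7 ± 3.89 CPM in control (log2 fold change -1.46, SE 0.11, edgeR adjusted p = 3.56e-06). Gja1, which encodes connexin 43, fell 1.45-fold (edgeR adjusted p = 0.000265). Id2, an inhibitor of helix-loop-helix factors, rose 1.70-fold, and Cd44, a hyaluronan receptor of fibroblasts and leukocytes, rose 1.79-fold (edgeR adjusted p = 4.81e-05 and 0.000203). These targets respond to other pathways as well, and 5 of 8 fibroblast markers were called higher in KO, as given above. Their part in these values was not tested.

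Of 11 genes of Wnt secretion and the cell surface, 5 rose and 1 fell, 54.5% called beside 27.9% of all tested genes (median 0.19). Gpc1, a glypican, fell 2.41-fold to 198 ± 23.5 CPM in KO against 476 ± 36.7 CPM in control (edgeR adjusted p = 1.68e-06), while Sdc4, a syndecan, rose 1.58-fold, Sulf1, which trims heparan sulfate, 1.25-fold, and Gpc6 1.37-fold. Of 23 cytoplasmic genes of the beta-catenin pathway, 4 rose and 2 fell, 26.1% called (median 0.09). Apc2, a relative of the Apc scaffold, fell 2.04-fold, and Dvl1, a Dishevelled gene, fell 1.24-fold. Cxxc4 and Frat2 rose 1.53-fold and 1.61-fold. Of 19 genes listed as nuclear partners, 2 rose and 3 fell, 26.3% called (median 0.02). The list includes the symbol Tcf3, which is not the member Tcf7l1. Tle3, a corepressor, was higher by 0.51 on the log2 scale and Pygo1, a coactivator of beta-catenin, was at -0.77 (edgeR adjusted p = 9.43e-05 and 0.000579). The deacetylase gene Hdac1 rose 1.30-fold and the remodeller gene Smarca4 fell 1.21-fold.

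Of 38 genes of the planar cell polarity and calcium branches, 9 rose and 4 fell (median 0.09). The called share was 34.2%, near the 27.9% of all tested genes. Daam2, a formin that acts with Dishevelled, fell 2.26-fold to 46.5 ± 4.03 CPM in KO against 105 ± 4.20 CPM in control (log2 fold change -1.17, SE 0.07, edgeR adjusted p = 4.29e-07). Mapk10 and Intu fell 1.70-fold and 1.47-fold, and Celsr1, an atypical cadherin of planar polarity, rose 1.82-fold. Of 15 tested further secreted or surface regulators, 4 rose and 2 fell, 40% called beside 27.9% of all tested genes (median 0.08). Sost, which encodes the Lrp antagonist sclerostin of bone, rose 2.74-fold to 31.5 ± 6.47 CPM in KO against 11.5 ± 2.51 CPM in control (edgeR adjusted p = 0.000344), and Lrp4, which binds sclerostin, fell 1.69-fold (edgeR adjusted p = 2.12e-05). Igfbp4, an IGF-binding protein that also inhibits Wnt signals, rose 1.19-fold, and Tspan12, a partner of Fzd4, fell 1.24-fold. Among 9 ligands outside the members 1 passed the filter and was not called, and together these ligands held 0.872 to 1.60 CPM in KO libraries and 0.908 to 1.51 CPM in control libraries.

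By level per length in control atria, Dkk3 (383 ± 59.9 CPM per kb) and Ctnnb1 (91.9 ± 1.64) were followed by Lgr6 (27.7 ± 2.64) and Sfrp5 (25.2 ± 3.05), which did not differ beyond their spread, and then by Sfrp1 (19.1 ± 1.82). In KO atria the order was Dkk3 (144 ± 12.2 CPM per kb), Ctnnb1 (117 ± 0.998), Sfrp2 (32.5 ± 6.27), Sfrp1 (18.2 ± 1.58) and Lgr6 (17.2 ± 4.79), of which Sfrp1 and Lgr6 did not differ beyond their spread. Merged exons can overstate the expressed length of a gene with long alternative exons. With the longest annotated transcript instead, Dkk3, Ctnnb1, Lgr6 and Sfrp5 held the same ranks in control and Sfrp1 ranked 7.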

How the data were processed

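The values were raw read counts per gene, whole numbers as deposited by the authors, in 1 table of 8 libraries. Per the submitters' processing notes, STAR, DESeq2 and the build mm10 were used, without versions or roles. Which tool counted reads, with which strand setting and annotation, is not given in the sources used here. Column names give each sample's vector and number.

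Counts were analysed with edgeR 4.0.16 in R 4.3.3, with limma 3.58.1 and DESeq2 1.42.0 as alternatives. Of 54532 genes, 33437 had a count and 18033 passed filterByExpr (minimum count 10, minimum total 15). Libraries were scaled by TMM, and KO over control was tested two-sided by edgeR's quasi-likelihood fit (robust, without covariates), with Benjamini-Hochberg adjustment over all tested genes. The SE is the log2 fold change divided by the square root of the F statistic. Coordinates and merged exon lengths came from GENCODE M21 (GRCm38), and start windows from RefSeq (GRCm38.p6). The fit was tested on simulated data.

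The members, the lists and the alternatives were chosen with earlier results of these data known. Members called with a mean of at least 1 CPM, and the 3 of highest level per length in each role, are given library by library, and up to 4 called genes of smallest p from each pathway list are named. A count of 3 corresponds to 0.0744 to 0.0885 CPM, which covers counting error only. Samples are numbered in the labels and not called separate mice, so the p-values reflect only how far these samples spread, possibly for technical reasons. Between replicates, chi-square per degree of freedom was 12.2 to 31.4, above sampling noise. Library name prefixes differ between KO 1 and KO 2 to 4 and between controls 1 and 2 and controls 3 and 4, and KO and control share none, so prefix and group cannot be told apart. Of the KO libraries KO 2, and of the controls 1 and 2, had almost no Y-linked Ddx3y, so the control subsets by prefix are also those by Y-linked expression. Alternatives covered scaling, tool, filter, replicate block, libraries left out, control prefix and Y-linked expression.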

Additional observations from a re-analysis of the deposited data

Results flagged for a closer look

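Of 94 sets of 4 libraries examined (47 members in each group), 4 held a library far from the other three by Dixon's criterion at 95%, where chance alone gives about 1 in 20. For Wnt4, KO 4 had 5.66 CPM, while KO 1 to 3 had 3.51 to 3.83. For Wnt10b, KO 4 had 0.948 CPM, while KO 1 to 3 had 0.354 to 0.422. For Lef1, KO 2 had 4.27 CPM, while the remaining KO libraries had 1.92 to 2.12. For Wnt5b, control 2 had 2.09 CPM, while the remaining controls had 3.06 to 3.16.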

How the results depend on the processing

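None of the 21 called members changed sign in any of the 20 alternatives, and 11 kept their call in all of them. Members called higher were 14 and members called lower 7. Higher calls numbered 8 against controls 3 and 4 alone and 11 to 14 with a library left out. Lower calls numbered 4 against controls 1 and 2 alone, 4 with no filter on low counts and 4 to 6 with a library left out. All tested genes called higher in KO were 2677, with 1700 against controls 3 and 4 alone and 2032 to 2687 with a library left out. The higher calls of the pathway lists, with Apcdd1 of 2 lists counted once, were 32, with 15 against controls 1 and 2 alone and 20 against controls 3 and 4 alone; these sets hold fewer samples. With total counts only, all tested genes called higher in KO were 3696 and all tested genes called lower in KO 1580, beside 2677 and 2355. With the replicate number as a block, 13 members were higher and 6 lower, and Lgr6 (adjusted p = 0.0810) and Tcf7l1 (0.0758) lost their calls. Deviations of same-numbered KO and control libraries correlated at -0.02, 0.30, -0.06 and 0.10. The 0.30 of KO 2 and control 2 was the highest of any KO and control library. Not every library correlated best with its own number. Deviations within a group depend on each other, so these values cannot settle whether the numbers pair the libraries.

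Signs changed for 13 members, all not called. Against controls 3 and 4 alone log2 fold changes were -0.0113 for Wnt2, -0.0938 for Wnt5a, -0.10 for Wnt6, -0.0034 for Fzd8, -0.14 for Fzd9, -0.0249 for Kremen1 and -0.11 for Notum. Against controls 1 and 2 alone they were 0.0196 for Wnt10b, 0.0839 for Fzd2 and -0.0274 for Fzd4. Without KO 2 and control 2 they were -0.0792 for Wnt5a, 0.12 for Wnt9b, -0.0348 for Fzd9 and -0.0446 for Notum. With total counts only they were 0.0768 for Fzd2, 0.0119 for Sfrp1 and 0.0341 for Rspo3. Fzd2 was at 0.0015 with a 1 CPM filter and at 0.0001 with the replicate block. Fzd9 was at -0.006 with DESeq2 size factors, -0.0061 by DESeq2 and -0.0161 with Y-linked expression as a covariate. With a library left out the log2 fold changes ranged from -0.0522 to 0.0679 for Wnt5a, -0.27 to 0.15 for Wnt9b, -0.62 to 0.17 for Wnt10b, -0.0838 to 0.0332 for Fzd2, -0.15 to 0.22 for Fzd9 and -0.25 to 0.13 for Rspo3. The cause was not tested. Depth limits members under about 1 CPM, where a few counts move the value.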

Other observations

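Wif1, a secreted Wnt inhibitor that did not pass the filter, was uneven between libraries. It had 14, 4, 3 and 6 counts in KO 1 to 4 and 71, 7, 3 and 27 counts in control 1 to 4. Myl2, the ventricular myosin light chain, named here after its value was seen, was at 65.8, 26.4, 9.86 and 3.60 CPM in KO 1 to 4 and at 268, 44.9, 19.5 and 37.9 CPM in control 1 to 4. Replicate 1 was the highest library of its group for both genes, and control 3 the lowest of the controls for both. The remaining order differed. The lowest KO library was KO 3 for Wif1 and KO 4 for Myl2. The next highest control was control 4 for Wif1 and control 2 for Myl2.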
